A study of Homo sapiens with 2 samples.

Results

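Collagen chain genes were taken as every listed gene whose symbol has the form COL, a type number, A and a chain number. Of the 37364 genes in the table, 44 met this rule. Levels came from 2 RNA libraries of D407, a human line labelled as retinal pigment epithelium (RPE), the pigmented layer behind the photoreceptors. One library was made from cells given clusterin, a secreted chaperone glycoprotein, and the other from control cells; both were grown in medium with 10% fetal bovine serum, and the sources used here give neither the dose nor the time of clusterin. With 1 library per group no difference had a replicate check, batch and treatment cannot be told apart, and no test between the groups was made.

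Collagens are matrix proteins built from chains that wind around each other as trimers, with glycine at regular positions and hydroxylated prolines that keep the helix stable. Fibrillar types form cables, type IV forms the sheet of basement membranes, and other types anchor, decorate or link these structures. The RPE rests on Bruch's membrane, whose layers hold basement membrane and fibrillar collagens, and the cells secrete part of that matrix themselves.

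Levels are given as RPKM, which are reads scaled to transcript length and to the library total. Levels of different genes can be set side by side only where the length used for each is right, and that was not tested. The reads behind these levels were recovered as whole numbers from totals fitted to each library. Each kilobase of a transcript at 1 RPKM thus corresponded to 38.2 control and 33.2 clusterin reads, and collagen transcripts are several kilobases long. Measured genes are those whose mean over both libraries reached 1 RPKM. The labelled cell type was checked against markers. Of 8 RPE markers, MITF stood at 9.70 RPKM in the control and 9.88 with clusterin and BEST1 at 2.14 and 1.73, while RPE65, RLBP1, LRAT, TTR and TYR were listed at 0. Of 6 epithelial markers, 4 were measured, all of them keratins of simple epithelia at high levels. The highest were KRT7 at 407 and 420 RPKM, KRT18 at 254 and 247 and KRT8 at 226 and 231. In contrast, CDH1 was not measured, at 0.0163 RPKM in the control (3 reads) and 0.0250 with clusterin (4 reads). EPCAM was listed at 0. Among 9 fibroblast and smooth muscle markers, DCN (25.9 and 24.9 RPKM) and LUM (46.2 and 45.7) were high, FAP was at 0.978 and 1.11, and PDGFRA and THY1 were listed at 0. TAGLN (0.890 and 0.774 RPKM), ACTA2 (0.735 and 0.928), PDGFRB (0.728 and 0.649) and DES (0.0698 and 0.0536) were not measured. Summed levels of all 9 were 75.5 RPKM in the control and 74.1 with clusterin, nearly all of it from DCN and LUM. The 5 endothelial markers summed to 1.01 and 0.975 RPKM and the 5 cartilage markers to 0.413 and 0.457.

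Of the 44 genes, 32 were above 0 in both libraries (72.7%), while 55.2% of all listed genes were above 0 in either library. Of the 44, 13 were measured (29.5%, against 35.4% of all listed genes). Type IV chains led. The 44 genes summed to 94.7 RPKM (control) and 88.8 RPKM (clusterin), and the 6 type IV genes made up 50.1% and 49.0% of that sum. Fibrillar chains gave 18.5% and 18.6%, the fibril-associated chains 12.2% and 12.3%, and COL7A1 alone 10.0% and 10.5%. The composition was thus nearly the same in both libraries. The remaining 31 genes were at 0 or below the mean of 1 RPKM, and 12 of these were listed at 0 in both.

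**Figure D1:**
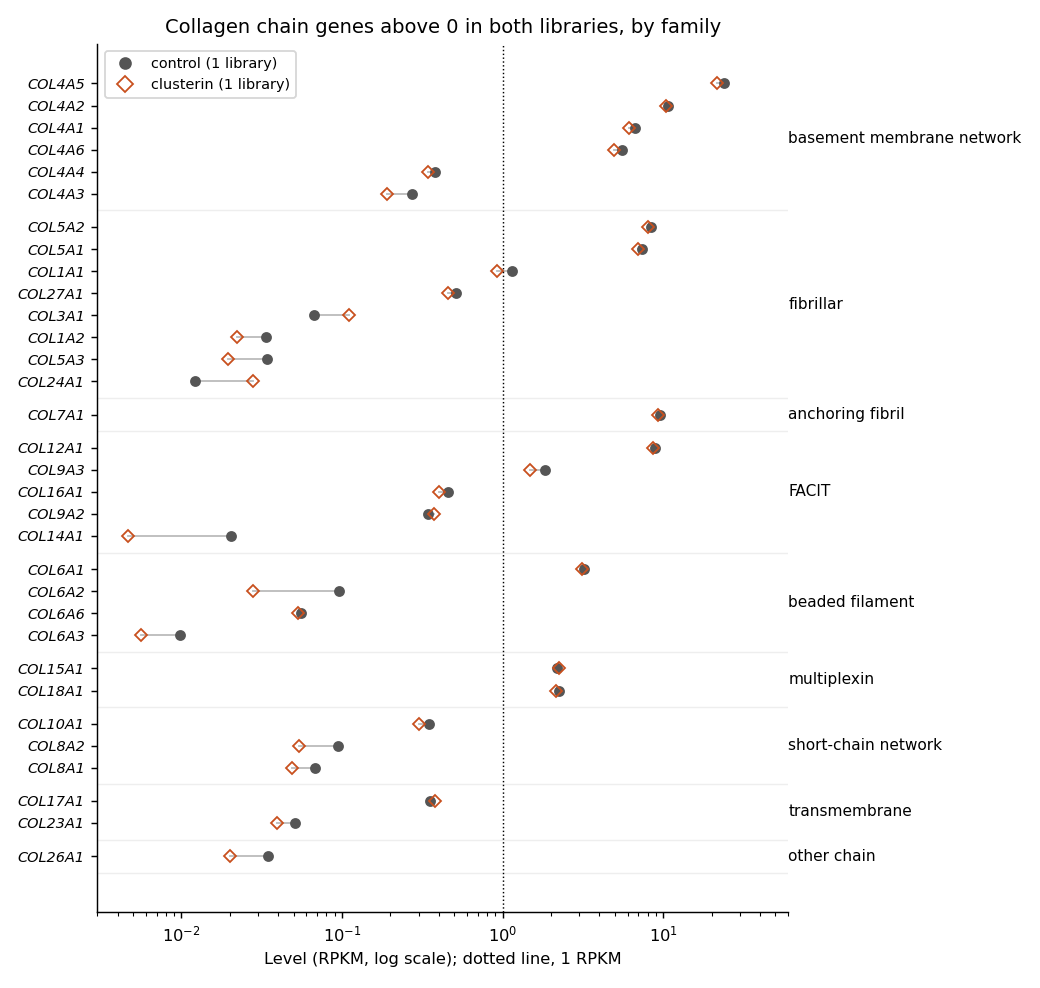
Levels of the 32 collagen chain genes above 0, grouped by family, in RPKM on a log axis; filled circles are the control library and open diamonds the clusterin library. Type IV chains hold the top of the range at 23.8 RPKM (COL4A5, control), and chains of 1 collagen type lie far apart in several families, such as COL6A1 at 3.22 RPKM and COL6A3 at 0.00978 in the control.

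COL4A5 (chromosome X, 108439736 to 108697545, GRCh38) had the highest level of all collagen genes. It encodes the alpha5 chain of type IV, which pairs with alpha3 and alpha4 or with alpha6. It stood at 23.8 RPKM in the control, from 5937 reads, and at 21.5 with clusterin, from 4652 reads. Its mean level was at or above that of 90.3% of the 20642 genes above 0. COL4A2 (chromosome 13, 110307284 to 110513027) followed at 10.7 and 10.4 RPKM, from 2560 and 2162 reads. COL4A1 (chromosome 13, 110148958 to 110307157) had levels of 6.70 and 6.13 RPKM (1674 and 1329 reads). These 2 genes encode the chains of the common form of type IV, found in nearly every basement membrane. COL4A6 (chromosome X, 108155607 to 108439497), whose alpha6 chain joins alpha5 in some epithelial basement membranes, had levels of 5.55 and 4.92 RPKM (1446 and 1112 reads). The last pair was low. COL4A4 was at 0.382 and 0.341 RPKM and COL4A3 at 0.271 and 0.190, although their long transcripts still gave 268 and 135 reads over both libraries. COL4A3 and COL4A4 encode the chains that join alpha5 in the network of the kidney filter and other specialised basement membranes, and mutations in either, or in COL4A5, cause Alport syndrome.

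Type IV genes lie in head-to-head pairs that start close together and are copied in opposite directions. By the deposited positions, 126 bases separated COL4A1 from COL4A2, 5 separated COL4A4 from COL4A3, and 238 separated COL4A6 from COL4A5. The stretches between the starts of the pairs with measured levels are shown because each serves as the upstream sequence of both genes. They are RefSeq sequence of GRCh38.p14, plus strand, with COL4A2 or COL4A5 starting to the right. Capitals mark exact matches, on either strand, to GGGCGG (the GC box bound by SP1-type factors), CCAAT (the CCAAT box) or TATAAA (the TATA box).
COL4A1 and COL4A2, chr13:110307158-110307283: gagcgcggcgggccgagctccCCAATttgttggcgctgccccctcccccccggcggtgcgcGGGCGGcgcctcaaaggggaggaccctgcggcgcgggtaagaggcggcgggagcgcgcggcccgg
COL4A6 and COL4A5, chrX:108439498-108439735: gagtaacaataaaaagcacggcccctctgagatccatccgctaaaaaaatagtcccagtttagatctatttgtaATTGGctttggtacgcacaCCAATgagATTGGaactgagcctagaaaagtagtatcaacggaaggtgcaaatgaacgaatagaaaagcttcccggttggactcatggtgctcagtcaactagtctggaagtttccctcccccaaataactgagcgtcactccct
The first stretch was 80.2% G or C with 20 CpG pairs, 1 GC box and 1 CCAAT box. The second was 44.5% G or C with 7 CpG pairs, 3 CCAAT boxes and no GC box. Neither held TATAAA. A match is a description of letters and not a shown site of binding.

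Genes sharing such a stretch did not stand at equal levels. The ratio of COL4A2 to COL4A1 was 1.59 in the control, with a 95% counting interval of 1.499 to 1.697, and 1.697 with clusterin (1.58 to 1.82). The ratio of COL4A5 to COL4A6 was 4.297 in the control (4.06 to 4.55) and 4.38 with clusterin (4.10 to 4.68). COL4A4 to COL4A3 gave 1.41 (1.07 to 1.86) and 1.796 (1.28 to 2.55). Dividing the clusterin ratio by the control ratio gave 1.06 for COL4A2 to COL4A1 (0.969 to 1.17), 1.02 for COL4A5 to COL4A6 (0.933 to 1.11) and 1.28 for COL4A4 to COL4A3 (0.819 to 1.997). Each interval held 1, so no shift in the balance of these chains was detectable at this depth. COL4A5 stood 62.4 times as high as COL4A4 in the control (53.1 to 73.9) and 63.1 times with clusterin (52.6 to 76.5). COL4A4 overlaps RHBDD1, which is transcribed from the opposite strand and was higher, at 1.33 and 1.28 RPKM, so the ratios with COL4A4 are uncertain. These intervals cover counting error only, since the reads carry no molecular identifiers and may be copies of one molecule. In RNA from whole cultures, fewer cells of a type and less RNA per cell cannot be told apart.

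**Figure D2:**
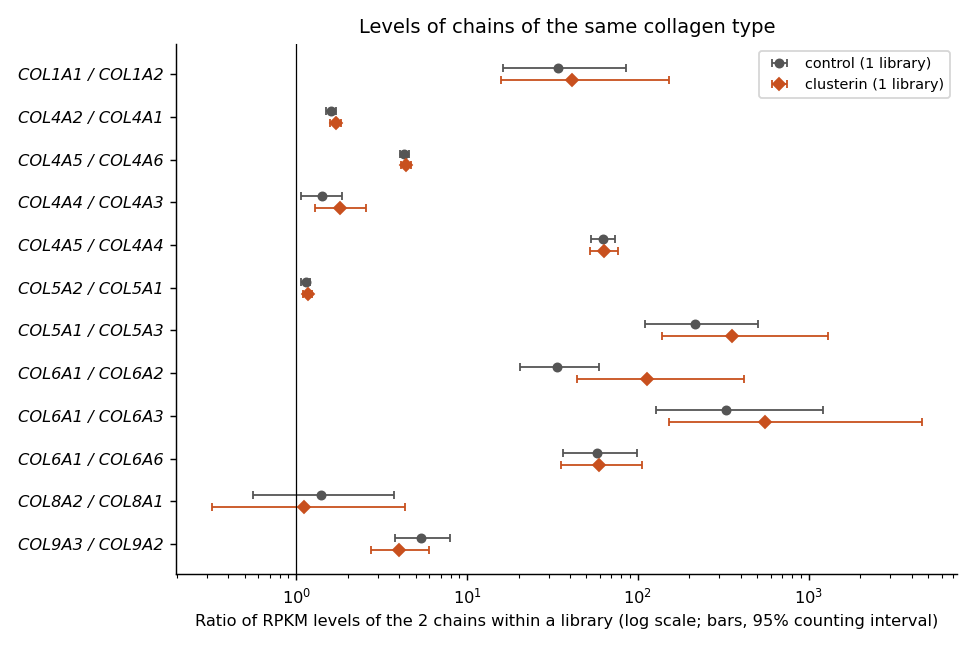
Ratio of the RPKM levels of 2 chains of the same collagen type within a library, on a log axis; circles are the control, diamonds clusterin, and bars the 95% counting interval. COL5A2 and COL5A1 lie nearest to a ratio of 1 among pairs with measured chains (1.13 in the control), and COL6A1 and COL6A3 lie furthest (329 in the control).

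Among the fibrillar chains, type V led and type I was low. COL5A2 (chromosome 2, 189031915 to 189225314) had 8.34 RPKM in the control, from 2211 reads, and 8.07 with clusterin, from 1856. COL5A1 (chromosome 9, 134641786 to 134844843) had levels of 7.36 and 6.92 RPKM (2393 and 1954 reads). Type V collagen lies inside type I fibrils and sets their width, and variants in COL5A1 or COL5A2 underlie classic Ehlers-Danlos syndrome. The ratio of COL5A2 to COL5A1 was 1.13 in the control (1.07 to 1.202) and 1.17 with clusterin (1.09 to 1.24). Of the type I genes, COL1A1 (chromosome 17, 50184096 to 50201648) had levels of 1.15 and 0.920 RPKM (260 and 181 reads). Its usual partner COL1A2 was at 0.0338 and 0.0223 RPKM, from 7 and 4 reads. COL1A1 was thus 33.9 times as high as COL1A2 in the control (16.2 to 85.1) and 41.3 times with clusterin (15.8 to 153). The main type I trimer holds alpha1 chains with an alpha2 chain, and a homotrimer of alpha1 is also known. COL3A1, which forms fibrils with type I in skin and vessels, had 14 and 20 reads (0.0667 and 0.110 RPKM). COL3A1 lies next to COL5A2, tail to tail with 19.2 kb between them, and COL5A2 was 125 times as high in the control (74.4 to 229) and 73.5 times with clusterin (47.4 to 121). COL27A1, a cartilage-associated fibrillar chain, stood at 0.511 and 0.459 RPKM. COL5A3 (8 and 4 reads) and COL24A1 (3 and 6) were near the lowest read totals in the table. COL2A1, COL11A1 and COL11A2, chains of cartilage fibrils, were listed at 0.

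COL7A1 and COL12A1 stood close to type V. COL7A1 (chromosome 3, 48564073 to 48595302) encodes the only chain of type VII, which forms the anchoring fibrils that fix basement membrane to the tissue below. It was at 9.50 RPKM in the control, from 3331 reads, and at 9.33 with clusterin, from 2838. COL12A1 (chromosome 6, 75084326 to 75206202) encodes a FACIT chain, a fibril-associated collagen with an interrupted helix that sits on the surface of type I fibrils. It was at 8.87 and 8.65 RPKM and, with a transcript of 11579 bases, gave 3926 and 3324 reads. Of the other FACIT chains, only COL9A3 was measured, at 1.84 and 1.49 RPKM from 175 and 123 reads. It belongs to type IX, which coats type II fibrils in cartilage and the vitreous. Its partner COL9A2 stood at 0.342 and 0.373 RPKM, and COL9A1 was listed at 0. COL9A3 was 5.39 times as high as COL9A2 in the control (3.76 to 7.91) and 4.004 times with clusterin (2.73 to 6.01). COL16A1 stood at 0.454 and 0.399 RPKM and COL14A1 had 5 and 1 reads. COL19A1, COL20A1, COL21A1 and COL22A1 were listed at 0.

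Upstream stretches of COL7A1, COL12A1 and COL5A1 are shown beside that of COL11A1, a fibrillar gene listed at 0. They set the sequence of genes with and without a level side by side. No upstream sequence was available here for COL5A2, which stood higher than COL5A1. Each stretch is given on the gene's strand, with the same motifs in capitals. It ends just before the most upstream start in RefSeq or in the deposited positions.
COL5A1, chr9:134641553-134641785, plus strand: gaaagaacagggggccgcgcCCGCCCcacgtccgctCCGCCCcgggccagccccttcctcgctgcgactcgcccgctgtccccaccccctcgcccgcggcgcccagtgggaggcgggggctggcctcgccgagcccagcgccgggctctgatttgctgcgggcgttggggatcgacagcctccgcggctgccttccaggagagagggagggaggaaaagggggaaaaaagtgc
COL7A1, chr3:48595330-48595579, minus strand: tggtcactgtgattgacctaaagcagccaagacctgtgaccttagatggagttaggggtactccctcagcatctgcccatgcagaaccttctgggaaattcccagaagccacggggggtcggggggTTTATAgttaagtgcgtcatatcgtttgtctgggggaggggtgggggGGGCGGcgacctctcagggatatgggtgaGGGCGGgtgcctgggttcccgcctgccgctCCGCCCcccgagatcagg
COL12A1, chr6:75206203-75206303, minus strand: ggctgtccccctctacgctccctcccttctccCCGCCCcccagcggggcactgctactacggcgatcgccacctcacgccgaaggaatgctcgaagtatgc
COL11A1, chr1:103108577-103108772, minus strand: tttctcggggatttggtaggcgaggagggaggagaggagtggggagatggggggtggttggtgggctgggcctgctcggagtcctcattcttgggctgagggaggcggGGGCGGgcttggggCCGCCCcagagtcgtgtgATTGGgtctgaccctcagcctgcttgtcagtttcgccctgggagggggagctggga
COL5A1 held 2 GC boxes, COL7A1 3 and a TATA box on the opposite strand, COL12A1 1, and COL11A1 2 and a CCAAT box. The stretches differ in length (233, 250, 101 and 196 bases in that order), so these counts are not comparable between genes. A GC box was thus present in all 4 of these stretches, that of the gene listed at 0 included. Over whole RefSeq windows of 300 bases, from 250 before the start to 50 after it, 32 collagen genes matched by symbol. Where a gene had several windows, only the first listed was counted, while the share of all windows holds every one. Later windows of COL4A6, COL24A1 and COL11A2 held a GC box where the first did not, and for COL21A1 the reverse was seen. A GC box lay in 7 of the 9 windows of measured collagen genes, in 9 of 15 of those above 0 but not measured and in 2 of 8 of those listed at 0, against 45.0% of all 35116 windows. The median G and C content was 74.0%, 67.0% and 61.7% in these 3 groups and 58.7% in all windows. COL11A1 was 1 of the 2 genes listed at 0 with a GC box in the window. A CCAAT box lay in 10 of the 32 windows (34.6% of all windows) and TATAAA in 5 of 32 (11.5%). These counts are descriptions of small groups of genes, and windows of paired genes overlap.

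Type VI was uneven. It forms beaded filaments around cells and is usually built from alpha1, alpha2 and alpha3. COL6A1 (chromosome 21, 45981749 to 46005049) had 3.22 RPKM in the control, from 520 reads, and 3.14 with clusterin, from 440. COL6A2 (chromosome 21, 46097606 to 46132849), on the same strand with 92.6 kb and no other listed gene between them, had 16 control and 4 clusterin reads (0.0964 and 0.0278 RPKM). COL6A3 had 4 and 2 reads (0.00978 and 0.00564 RPKM), from a transcript of 10670 bases. COL6A1 was therefore 33.4 times as high as COL6A2 in the control (20.4 to 58.8) and 113 times with clusterin (43.8 to 417). The clusterin ratio was 3.38 times the control ratio, with an interval of 1.08 to 14 that left out 1 and rested on the 4 clusterin reads of COL6A2. Against COL6A3, COL6A1 was 329 times as high in the control (127 to 1209) and 557 times with clusterin (153 to 4602). COL6A6 had 18 and 15 reads, and COL6A5 was listed at 0.

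COL15A1 and COL18A1, the multiplexins, encode chains that sit in basement membranes and carry sugar chains; the end of the COL18A1 protein is released as endostatin, an inhibitor of vessel growth. COL15A1 (chromosome 9, 98943348 to 99070792) had 2.19 RPKM in the control, from 454 reads, and 2.23 with clusterin, from 402. COL18A1 (chromosome 21, 45405137 to 45513720) had levels of 2.24 and 2.14 RPKM (517 and 429 reads). These 2 genes were almost equal in both libraries. Of the short-chain network genes, COL10A1, known from growth plate cartilage, was at 0.350 and 0.302 RPKM. COL8A1 and COL8A2, chains of the layer under the corneal endothelium, had 8 and 5 reads and 16 and 8 reads. Transmembrane collagens were low, with COL17A1, a hemidesmosome component, at 0.354 and 0.381 RPKM and COL23A1 at 6 and 4 reads, while COL13A1 and COL25A1 were listed at 0. COL26A1 had 4 and 2 reads and COL28A1 was listed at 0. No gene in the table had fewer than 6 recovered reads over both libraries, and RPS18, which encodes a ribosomal protein needed in all cells, carried a level of 0 as well. The 12 collagen genes at 0 are therefore given as listed, with nothing said of whether they were expressed.

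Several collagen genes overlap another listed gene. COL9A3 overlaps TCFL5 on the opposite strand, which stood at 19.4 and 19.0 RPKM. COL18A1 overlaps SLC19A1 on the opposite strand, at 6.73 and 7.42 RPKM. COL10A1 overlaps NT5DC1 (4.10 and 3.63 RPKM), and COL4A2 overlaps COL4A2-AS1 (2.57 and 3.19), both on the opposite strand. COL14A1, COL26A1 and COL24A1 likewise overlap genes without a symbol on the opposite strand, which were higher than they were, at 2.30, 0.925 and 0.161 RPKM in the control. COL4A3 overlaps LOC654841 (0.146 and 0.120 RPKM) and COL5A1 overlaps LOC101448202 (0.967 and 0.767). Both partners lie on the opposite strand and were lower than the collagen gene. The strand setting of the counting was not given in the sources used here, so reads of these genes (and of COL4A4) and of their partners may not have been told apart, and their levels are uncertain to that extent.

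The series asked which RNAs respond to clusterin in these cells. Collagen chain genes differed little. The difference is given as log2((clusterin RPKM + 1)/(control RPKM + 1)), on which the fold of low genes is understated. None of the 13 measured collagen genes reached a 2-fold difference, which 0.219% of the 13244 measured genes did. With a pseudocount of 1 RPKM, a gene near 1 RPKM needs a plain ratio well past 2-fold to be counted; the plain ratio furthest from 1 among the 13 was that of COL1A1, 0.802. None reached 1.2-fold either, against 2.26% of measured genes higher and 5.61% lower with clusterin. That count depended on the pseudocount: at 0.1 RPKM, COL1A1 and COL9A3 passed as lower, 2 of 13, beside 13.7% of all measured genes in either direction. The differences ran from -0.19 (COL9A3) to 0.02 (COL15A1), with a median of -0.04 beside -0.06 for all measured genes. Of the 13, 12 lay below 0, as did 70.2% of all measured genes, and 6 lay below the median of all. With the control scaled so that the median of all genes was 0, 6 lay below 0 and 7 above it.

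**Figure D3:**
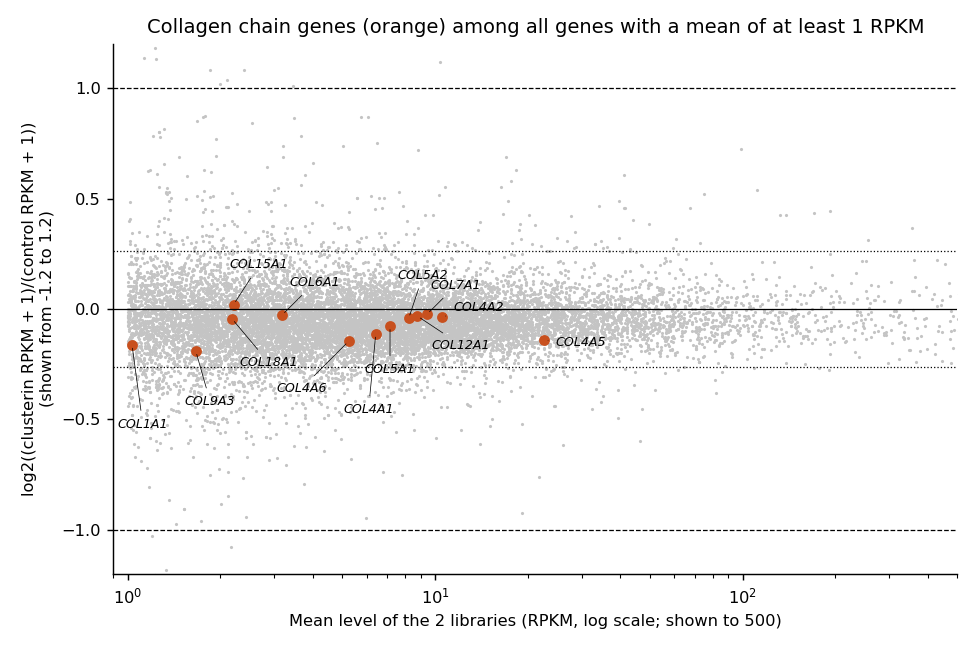
Mean level against log2((clusterin RPKM + 1)/(control RPKM + 1)) for all measured genes, grey, with the 13 measured collagen chain genes in orange; dashed lines mark 2-fold and dotted lines 1.2-fold. All 13 collagen genes lie between the dotted lines, from -0.19 to 0.02.

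The RPKM ratios with their counting intervals show where the small differences lay. COL4A5 had a ratio of clusterin to control of 0.903 (0.869 to 0.939), COL4A6 of 0.886 (0.819 to 0.959) and COL4A1 of 0.915 (0.851 to 0.984). COL4A2, the fourth measured type IV gene, was at 0.973 (0.919 to 1.03). All 4 were lower in the clusterin library, and the interval of COL4A2 held 1. In the fibrillar group, COL1A1 had a ratio of 0.802 (0.660 to 0.974), COL5A1 of 0.941 (0.886 to 0.9995) and COL5A2 of 0.967 (0.909 to 1.03). COL7A1 (0.982, 0.934 to 1.03), COL12A1 (0.976, 0.931 to 1.02), COL6A1 (0.975, 0.857 to 1.11), COL18A1 (0.956, 0.839 to 1.09), COL15A1 (1.02, 0.890 to 1.17) and COL9A3 (0.810, 0.638 to 1.03) had intervals that held 1. Among the 19 genes above 0 but not measured, COL6A2 had a ratio of 0.288 (0.0701 to 0.893), and the interval of each of the other 18 held 1. Intervals thus left out 1 for 6 of the 32 collagen genes above 0, all lower with clusterin, while 20.2% of the 19177 genes with recovered reads had such intervals. The median ratio of the 12426 genes with at least 100 reads was 0.952. Against that value, only the intervals of COL4A5 and COL6A2 left it out, 2 of 32, beside 16.7% of all genes with recovered reads. Genes with the smallest deposited p-values had no reads recovered, by rule, so both shares of all genes leave them out.

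**Figure D4:**
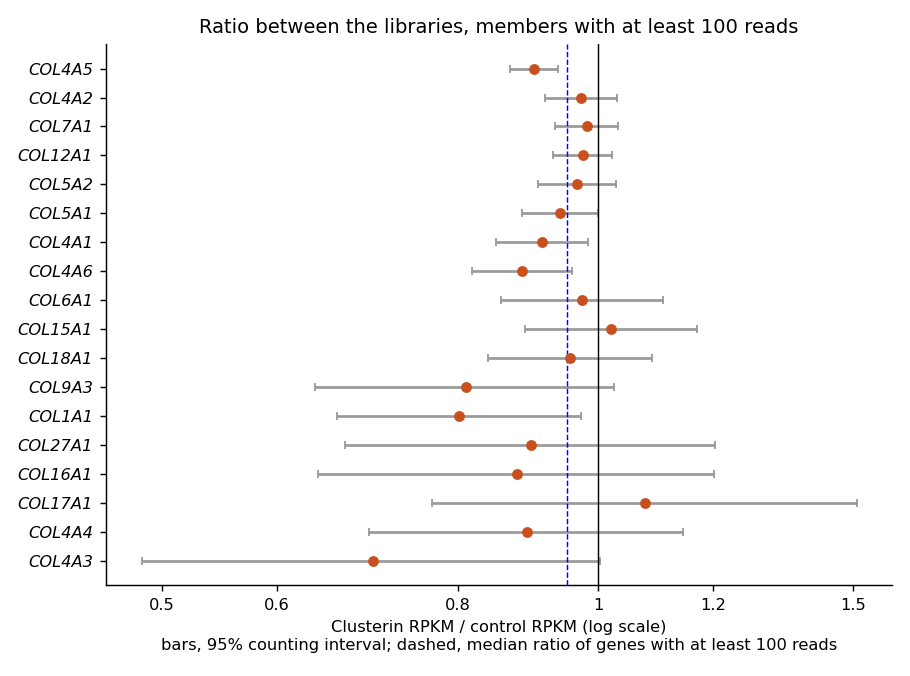
Ratio of clusterin to control RPKM for the 18 collagen chain genes with at least 100 reads over both libraries, on a log axis, with 95% counting intervals; the solid line is 1 and the dashed line 0.952, the median ratio of genes with at least 100 reads. The interval of COL4A5 lies wholly below the dashed line.

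By the q-values of the authors' deposited table, 2 of the 32 collagen genes above 0 passed 0.05, against 12.0% of the 20642 genes above 0 in that table. Both were lower with clusterin; over all genes of the authors' deposited table, 10.4% passed as lower and 1.63% as higher. In the authors' deposited table, COL4A5 had a q of 1.29e-05 and COL4A6 of 0.0268, followed by COL4A1 at 0.0945. For 465 of 478 short RNA genes, whose lengths came from the deposited positions, the deposited p equalled that of a test of reads alone. Such p-values compare these 2 libraries and not the conditions, and genes with more reads pass more readily.

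Genes that modify, fold and release collagen chains were abundant. The prolyl 4-hydroxylases stabilise the helix, the lysyl hydroxylases (PLOD) and galactosyltransferases (COLGALT) prepare sites for cross-links and sugars, and the prolyl 3-hydroxylase complex holds CRTAP and PPIB. In this list of 15 genes, 14 were measured and COLGALT2 was listed at 0. PPIB stood at 178 RPKM in the control and 171 with clusterin, P4HB, the shared subunit of prolyl 4-hydroxylase, at 137 and 141, and COLGALT1 at 74.9 and 73.6. P4HA3, a catalytic subunit, was lower with clusterin by more than 1.2-fold, at 1.51 and 1.01 RPKM, a log2 difference of -0.32 and a ratio of 0.669 (0.497 to 0.894). The list's median difference was -0.03. Among 12 genes of folding and secretion, 9 were measured, led by HSPA5, an ER chaperone, at 54.1 and 51.7 RPKM, SERPINH1, the collagen chaperone HSP47, at 35.3 and 37.5, and FKBP10 at 28.4 and 26.3. Their median was -0.08 and none passed 1.2-fold. CREB3L1, MIA2 and SPARC were not measured. CREB3L1 had 19 and 5 reads, a ratio of 0.303 (0.0885 to 0.840). SPARC, a collagen-binding protein of the matrix, stood at 0.0947 and 0.0924 RPKM. These 3 genes were picked out once their values were known.

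Levels of the genes that act after secretion varied widely, and many were at 0 or not measured. Of 8 genes of propeptide cleavage, 3 were measured: TLL1 at 5.75 and 5.99 RPKM, PCOLCE2 at 5.96 and 4.96, and BMP1 at 5.32 and 5.77. PCOLCE2 had a plain ratio of 0.831 (0.720 to 0.959) and did not pass 1.2-fold with the pseudocount. BMP1 and TLL1 cut the C-terminal propeptides of fibrillar procollagens, and PCOLCE2 enhances that cut. PCOLCE was not measured, at 0.678 and 0.633 RPKM, and TLL2 was listed at 0. Of the enzymes that remove the N-terminal propeptides, ADAMTS14 stood at 0.0596 and 0.0744 RPKM, and ADAMTS2 and ADAMTS3 were listed at 0; these 3 were picked out once their values were known. Of the 5 lysyl oxidases, which cross-link collagen and elastin, LOXL2 stood at 30.5 and 32.4 RPKM, LOX at 7.17 and 7.62, and LOXL3 at 2.52 and 2.85. The median difference of these 3 was 0.09 and none passed 1.2-fold. LOXL4 (0.193 and 0.256 RPKM) and LOXL1 (0.188 and 0.255) were not measured. The intervals of the ratios of LOX (1.06, 0.987 to 1.14) and LOXL3 (1.13, 0.959 to 1.33) held 1. LOXL2 has no interval because its reads were not recovered. Over the 40 synthesis genes together, 29 were measured and 1 passed 1.2-fold as lower, beside 5.61% of all measured genes. The median was -0.04, beside -0.06 for all genes. Of the 36 synthesis genes above 0, 29 were measured, while 13244 of the 20642 genes above 0 were. Genes with more reads pass a test of reads alone more readily, so shares passing are not like for like. A q under 0.05 in the authors' deposited table was held by 7 of these 36 synthesis genes, against 12.0% of all genes above 0. Of these 7, LOXL2 (q of 0.0408 in the authors' deposited table) was higher with clusterin (1.63% of all genes) and 6 were lower (10.4%). The 6 were CRTAP (q of 4.22e-05), MIA3 (0.00475), P4HA1 (0.0383), HSPA5 (0.0411), FKBP10 (0.0421) and P4HA3 (0.0430), by the same deposited q-values.

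**Figure D5:**
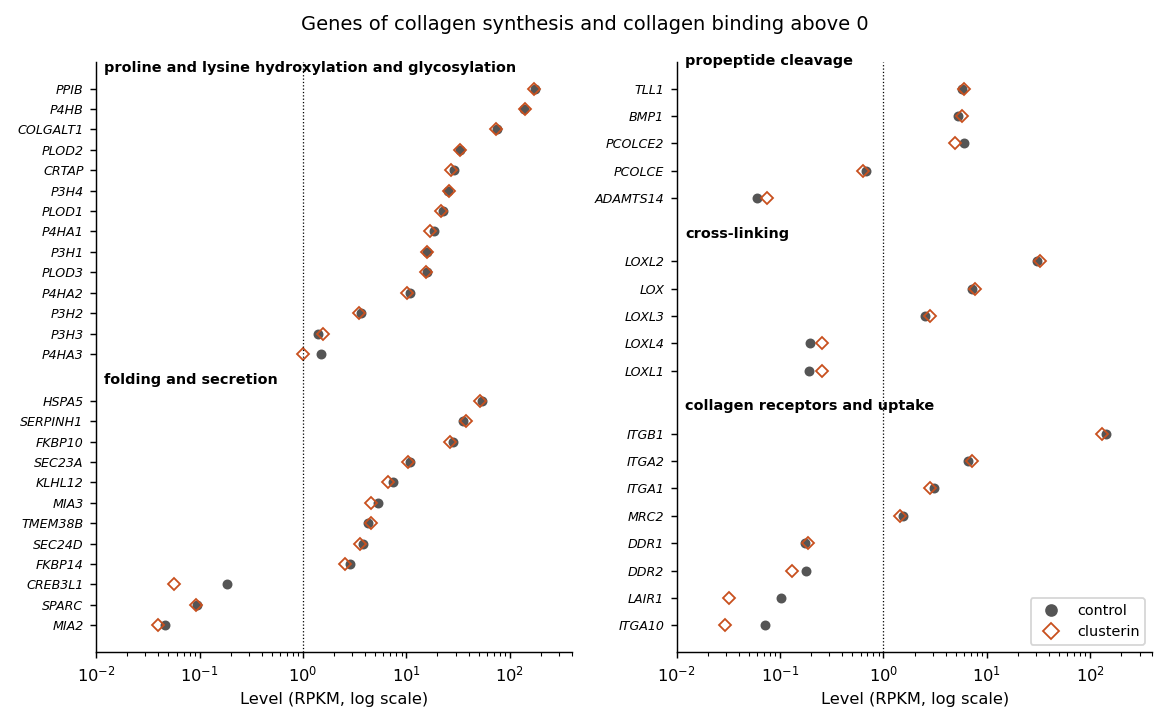
Levels in RPKM, on log axes, of genes of collagen synthesis (hydroxylation, folding, cleavage, cross-linking) and of collagen receptors above 0; circles are the control and diamonds clusterin. The libraries lie close together for the abundant genes, and P4HA3, at 1.51 and 1.01 RPKM, is the only measured gene plotted that passes 1.2-fold with the pseudocount of 1 RPKM.

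Of 10 genes of collagen receptors and uptake, 4 were measured. ITGB1, the beta1 integrin subunit shared by all collagen-binding integrins, stood at 143 RPKM in the control and 129 with clusterin. Its alpha partners ITGA2 and ITGA1 stood at 6.55 and 7.20 and at 3.08 and 2.83 RPKM, and MRC2, a receptor that takes up collagen fragments, at 1.56 and 1.44. Their median difference was -0.08 and none passed 1.2-fold; over ITGB1 and ITGA2, the 2 whose mean reached 5 RPKM, the median was -0.01. In the authors' deposited table, 2 of the 8 genes above 0 passed a q of 0.05, against 12.0% of all genes: ITGB1 as lower with clusterin (q of 4.97e-21) and ITGA2 as higher (q of 0.0333). The discoidin domain receptors stood at low RPKM, with DDR1 at 0.173 and 0.188 and DDR2 at 0.177 and 0.130. Yet DDR1 had 142 and 134 recovered reads, while DDR2 had 22 and 14. The level of DDR1 thus rests on a far longer length, and whether that length is right was not tested. ITGA11 and GP6 were listed at 0. These 4 genes were likewise picked out once their values were known. Among 12 collagen-binding matrix proteins, 5 were measured, led by the small proteoglycans LUM and DCN, which bind fibrils, and FN1, fibronectin, at 5.03 and 4.68 RPKM. Their median difference was -0.02. HSPG2, the basement membrane proteoglycan perlecan, stood at 2.31 and 2.37 RPKM, while NID1, which links type IV to laminin, was at 0.0178 and 0.0154; these 2 were also picked out with their values known.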

How the data were processed

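The labels' protocols describe Trizol extraction, oligo(dT) selection, fragmentation and random-hexamer priming. Bowtie, TopHat, Cuffdiff and build hg19 are named in the submitters' processing notes, without versions. Yet the deposited positions of 43 of the 44 collagen genes started near RefSeq on GRCh38. For 465 of 478 short RNA genes, the deposited p equalled that of a test of reads alone. Whether the notes describe the deposited values is therefore uncertain. The authors deposited RPKM levels, as reads scaled to transcript length and library total, 1 per gene and library; the headers name no unit, so this was read from the values. Beside the levels, the authors deposited the log2 of their ratio, with p-values and q-values. For 488 and 486 of 522 short RNA genes (control and clusterin), level times length was whole within 0.02 at 1 total per library. For other genes, the length was searched for at which both levels gave whole reads and the Audic-Claverie p equalled the deposited one within 0.2% (0.6% for p below 0.0001). Reads were recovered for 92.9% of 20642 genes above 0, and for all 32 collagen genes above 0. None were sought for genes with the smallest deposited p-values, such as ITGB1. Whole numbers cannot tell reads from read pairs. The steps were tested on simulated data.

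Deposited positions of 43 of the 44 collagen genes started within 2000 bases of RefSeq on GRCh38 and are given as GRCh38; COL27A1 did not. Intervals of ratios are exact Clopper-Pearson 95% intervals of read shares, and those of a change in a ratio are exact conditional odds ratio intervals (SciPy 1.17.1). The pseudocount was 1 RPKM. Every collagen gene is named, as are the 3 highest measured genes of each other list and those past 1.2-fold. Other pseudocounts, filters and a rescaled control were tried. The collagen genes, lists and rules were chosen with earlier results of these data known.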

Additional observations from a re-analysis of the deposited data

How the results depend on the processing

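No paired analysis was possible because each group holds 1 library. With a pseudocount of 0.1 RPKM, 2 of 13 measured collagen genes passed 1.2-fold, COL9A3 and COL1A1, both lower with clusterin, beside 13.7% of all genes; 0 passed 2-fold under any setting run. With a mean of at least 5 RPKM, 8 collagen genes were measured, and with no filter 32. The count of synthesis genes past 1.2-fold was 0 with a pseudocount of 5 and 0 with a mean of at least 5. At q below 0.01, 1 collagen gene remained in the authors' deposited table. With the control rescaled, the difference of COL4A5 was -0.07. The other 65 of 72 values recomputed moved by less than the counting error of single genes or by less than 1.5 times. For medians that is a wide allowance. With the control rescaled, the median went from -0.04 to 0.004 for collagen chain genes and from -0.04 to 0.02 for synthesis genes, so the sign of both changed. Genes with few reads, 14 of the 32 under 100 over both libraries, have wide intervals.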
